A study of Mus musculus with 101 samples.

Results

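Glycogen is the branched glucose polymer in which cells store carbohydrate, and 8 genes of its metabolism were followed here in mouse fat: Gys1, Gys2, Gbe1, Ugp2, Ppp1r3b, Ppp1r3c, Pygl and Phka2. They were chosen with earlier results of these data known. By joining Entrez identifiers to symbols, they were taken by name from the 24475 genes of the deposited tables. All 8 were present and passed the filter on low counts in every fit. The question was how their transcript levels lay over the 12 groups of the study and how they responded to mInhbe overexpression, to Inhbe knockout, to high-fat diet and to depot.

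As background, glycogen synthesis starts with UDP-glucose, which the pyrophosphorylase encoded by Ugp2 makes from glucose-1-phosphate. Glycogen synthase lengthens the chains, with Gys1 encoding the broadly expressed form and Gys2 the form typical of liver, and the branching enzyme Gbe1 adds the side chains. Ppp1r3b and Ppp1r3c (PTG) encode subunits that bring protein phosphatase 1 to glycogen, where it activates the synthase and switches off the phosphorylase. Breakdown is carried out by glycogen phosphorylase, whose liver-type form is encoded by Pygl, after activation by phosphorylase kinase, of which Phka2 encodes a regulatory alpha subunit. In fat cells glycogen is a small store that is turned over with feeding and that stands beside the much larger store of triglyceride.

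The study asked how activin E, the homodimer of the protein encoded by Inhbe, affects adipose tissue. Inhbe is a gene made mainly in liver. All mice were males of the C57BL/6NTac strain, and subcutaneous and epididymal white fat were profiled by mRNA sequencing in 2 experiments. In the first, chow-fed WT mice received an AAV8 vector that expressed either GFP, the control, or mInhbe in the liver, with 10 libraries per vector and depot. In the second, WT and Inhbe KO mice were fed chow or a high-fat diet (HFD), and treatment was given as none. On chow there were 8 WT and 7 KO libraries for either depot. On HFD the WT group had 7 libraries of subcutaneous and 8 of epididymal fat, and the KO group 8 of each. The series text gives 8 mice for WT HFD, and 7 subcutaneous libraries of that group are analysed here. Ages, feeding times, the composition of the diet and the design of the KO allele are not stated by the labels. The labels number the libraries as biological replicates within a group and do not say whether equal numbers in the 2 depots are 1 mouse.

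Library totals ran from 12970500 to 20170700 estimated counts, and levels are given as CPM, the counts per 1000000 of that total. The targeted gene was read first. Inhbe had 0 counts in all 20 GFP libraries, 35 to 846 counts in the subcutaneous mInhbe libraries and 4 to 232 in the epididymal ones, so its transcript was also found in fat. In the KO experiment 3 of 61 libraries held any Inhbe count, at most 5, so fat cannot show the genotype. Fat cell markers were abundant in every library, with Adipoq (adiponectin) at 654 CPM or more. Libraries also carried tissue that moved with depot and experiment: lymph node markers summed to 13.1 to 2337 CPM in subcutaneous libraries, and epididymis markers to 0.0573 to 13745 CPM in epididymal ones. Skeletal muscle markers summed to 31.6 to 3502 CPM and brown fat markers to 33.3 to 1513 CPM over all libraries. Because whole tissue was sequenced, fewer cells of a type and less RNA per cell cannot be told apart. Each p-value sets a difference against the spread between these libraries, as estimated in the fit it comes from.

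The genes lie on 8 chromosomes of GRCm38.p6, the RefSeq assembly that corresponds to the mm10 build named in the submitters' processing notes: Gys1 at chr7:45434839-45456617, Gys2 at chr6:142422612-142473130, Gbe1 at chr16:70313949-70569720, Ugp2 at chr11:21321126-21371267, Ppp1r3b at chr8:35375694-35388139, Ppp1r3c at chr19:36731731-36736604, Pygl at chr12:70190815-70227683 and Phka2 at chrX:160501904-160598879. Exons of Gys1, Ugp2 and Phka2 overlap exons of a gene on the other strand (Ruvbl2, Gm12043 and Gm15243). Whether counting used strand is not stated, so those 3 levels may include reads of the neighbour.

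RefSeq promoter entries were matched for 6 of the 8 members, and the 4 whose response to KO in epididymal fat depended on diet (below) are shown. Each line gives the 250 bases upstream of the annotated start, or, for Ppp1r3c, the 201 bases of them that lie outside annotated exons, 5′ to 3′ on the gene's strand. The windows are chr7:45434589-45434838 (plus strand) for Gys1, chr16:70313699-70313948 (plus) for Gbe1, chr12:70227684-70227933 (minus) for Pygl and chr19:36736654-36736854 (minus) for Ppp1r3c. Capitals mark matches, on either strand, to the E-box CACGTG, to CAGAC (a SMAD element, SMADs being the transcription factors that activin receptors act through) or to TGACG (part of the cAMP response element); the 3 motifs do not overlap in these windows.
Gys1: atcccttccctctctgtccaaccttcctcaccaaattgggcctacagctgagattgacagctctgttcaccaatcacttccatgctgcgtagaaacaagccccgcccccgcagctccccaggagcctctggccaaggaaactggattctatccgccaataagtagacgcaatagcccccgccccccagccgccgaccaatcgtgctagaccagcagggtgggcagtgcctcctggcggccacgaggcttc
Gbe1: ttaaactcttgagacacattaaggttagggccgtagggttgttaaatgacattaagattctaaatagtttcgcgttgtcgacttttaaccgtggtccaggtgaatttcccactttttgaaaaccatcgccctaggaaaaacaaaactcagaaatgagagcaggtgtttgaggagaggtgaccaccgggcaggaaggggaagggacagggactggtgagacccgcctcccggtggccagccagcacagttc
Pygl: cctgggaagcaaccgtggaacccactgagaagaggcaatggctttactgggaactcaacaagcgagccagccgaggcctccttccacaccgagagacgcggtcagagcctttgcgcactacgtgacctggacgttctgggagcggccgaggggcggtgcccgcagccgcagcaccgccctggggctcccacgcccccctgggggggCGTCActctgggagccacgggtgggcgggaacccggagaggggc
Ppp1r3c: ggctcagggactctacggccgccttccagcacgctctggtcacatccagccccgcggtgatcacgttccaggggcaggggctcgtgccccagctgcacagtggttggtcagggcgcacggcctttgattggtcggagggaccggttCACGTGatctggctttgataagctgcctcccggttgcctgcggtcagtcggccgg
Of these 4 windows, Ppp1r3c held 1 CACGTG and Pygl 1 TGACG, read on the opposite strand as CGTCA. Gys1 and Gbe1 held none of the 3 motifs, and none of the 4 held CAGAC. The other matched members were Phka2, with none of the 3 motifs, and Ugp2, whose windows held 2 and 1 CAGAC. The Phka2 window (chrX:160501912-160502161) and the first Ugp2 window (chr11:21370630-21370879) lie inside the gene coordinates given above. Among 32851 windows of 250 bases in the RefSeq table, 6.02% held CACGTG, 42.2% CAGAC and 17.8% TGACG. A match is only a description of the letters, and the lack of one says only that these letters are not in this window.

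Per kilobase of merged exon, which allows genes to be compared, Pygl was the most abundant member in 9 of the 12 groups and Ugp2 in the other 3 (WT HFD in both depots and WT chow epididymal). Pygl had group means of 31.2 to 98.4 CPM per kb. Ugp2 lay at 33.7 to 56.9 and Gys1 at 15.3 to 53.9 CPM per kb. Gbe1 (14.0 to 25.9), Phka2 (10.4 to 24.2) and Ppp1r3c (6.64 to 30.1) were lower, and Ppp1r3b was low throughout (1.90 to 6.78 CPM per kb). Gys2 had the widest span relative to its lowest mean, from 1.86 CPM per kb in epididymal fat of chow-fed mInhbe mice to 38.8 in subcutaneous fat of KO mice on HFD. Ordered by mean CPM, 87 of the 88 neighbouring pairs of groups had overlapping library ranges. The exception was Gys2: its lowest KO HFD library of either depot, at 79.9 CPM, lay above the highest library of the other 10 groups, at 75.4 CPM in subcutaneous KO chow fat.

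**Figure D1:**
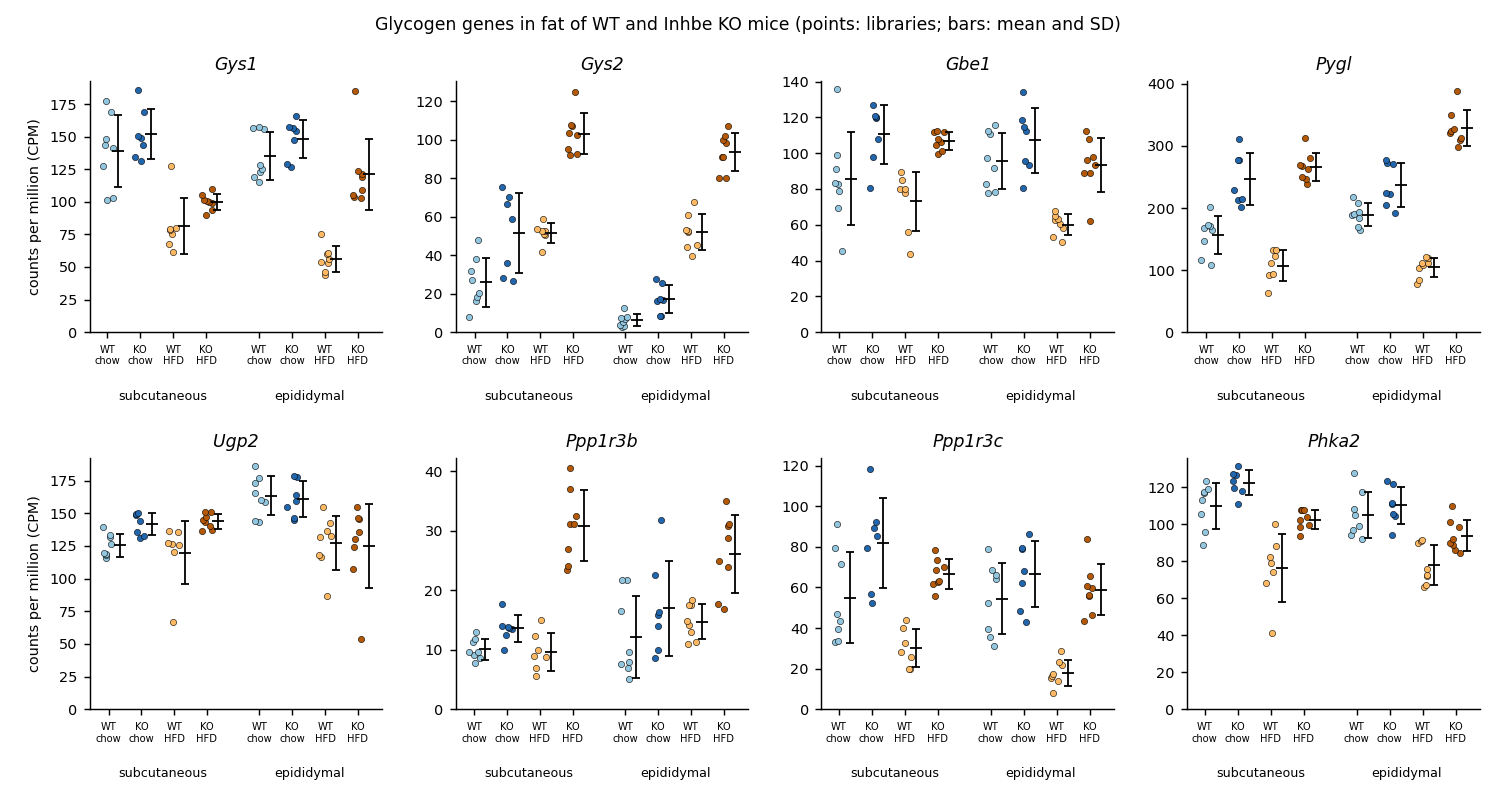
Levels of the 8 glycogen genes in the KO experiment, in CPM on linear axes that start at 0; each point is a library and bars give mean and SD for 7 or 8 libraries per group. On HFD, WT libraries (light orange points) lie below KO libraries (brown points) for Pygl and Ppp1r3c in both depots, and Gys2 is higher on HFD than on chow within each genotype.

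On HFD nearly all members were higher in KO than in WT mice in both depots. Because the members were chosen with earlier results of these data known, their shares set against all genes are descriptive. In subcutaneous fat all 8 members rose, against 7.32% of the 14220 genes tested that were called higher. The members' median difference was 0.94 on the log2 scale, where the median over all genes was -0.01. In epididymal fat 7 of 8 rose, against a background of 17.0% called higher, with a median of 1.01. Tests here and below are edgeR quasi-likelihood F tests with Benjamini-Hochberg adjustment over all genes, called under 0.05. Differences are log2 ± SE after TMM scaling, which sets each library's effective size so that most genes do not differ. Overlap of library ranges, here and below, was counted for the members only and not over all genes.

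Among the synthesis genes, subcutaneous Gys2 had a median of 52.4 CPM (41.5 to 59.0) in WT HFD and a median of 103 CPM (92.0 to 125) in KO HFD libraries. All 8 KO libraries lay above all 7 WT libraries, and the fitted difference was 1.17 ± 0.27, a 2.24-fold rise (adjusted p = 0.00307). Gys1, the broadly expressed synthase, rose less there, by 0.45 ± 0.16 (adjusted p = 0.0443), with WT HFD libraries at a median of 78.5 CPM (61.7 to 128) and KO HFD libraries at a median of 100.2 CPM (89.7 to 109.7). The 2 ranges overlapped, because WT library 6 was the highest of all 15; 6 of 7 WT libraries lay below every KO library. The branching enzyme Gbe1 went from a median of 79.8 CPM (43.9 to 89.3) to a median of 107 CPM (99.3 to 112), without overlap (0.71 ± 0.18, adjusted p = 0.00476). Ugp2, which supplies UDP-glucose, showed a small rise of 0.43 ± 0.10 (adjusted p = 0.00394), from a median of 127 CPM (67.1 to 136) to a median of 144 CPM (136 to 151). Its ranges missed overlap only narrowly, with the highest WT library at 136.1 CPM and the lowest KO library at 136.4 CPM. The Gys1 call was lost without WT HFD libraries 1, 2 and 4 and WT chow library 1, which were low in lymph node transcript, and in 3 other alternatives (0.36, adjusted p = 0.122 without those libraries); without the least typical library of each group, WT library 6 among them, the difference was 0.60.

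The phosphatase targeting subunits and the breakdown genes moved more. Ppp1r3b had the largest subcutaneous change of the 8, from a median of 8.91 CPM (5.52 to 15.0) in WT HFD to a median of 31.1 CPM (23.4 to 40.5) in KO HFD libraries, a 3.57-fold rise (1.84 ± 0.17, adjusted p = 4.7e-09). Ppp1r3c rose 2.49-fold, from a median of 28.3 CPM (19.9 to 43.9) to a median of 65.9 CPM (56.0 to 78.5) (1.31 ± 0.21, adjusted p = 4.21e-05). For both subunits the lowest KO library exceeded the highest WT library. The phosphorylase Pygl went from a median of 111 CPM (63.6 to 133) to a median of 265 CPM (239 to 313), a 2.79-fold difference (1.48 ± 0.16, adjusted p = 8.7e-08). Phka2, the kinase subunit, rose by 0.59 ± 0.12 (adjusted p = 0.000814), with WT libraries at a median of 78.9 CPM (41.3 to 99.8) and KO libraries at a median of 103 CPM (93.4 to 108), and the ranges overlapped. Fat cell marker sums were 26454 to 32958 CPM in KO and 30232 to 41685 CPM in WT HFD libraries, and macrophage sums were 534 to 684 against 786 to 1614 CPM. Adipoq was lower in KO libraries without overlap, at 1080 to 1381 against 1514 to 2626 CPM. The part of these markers in the results was not tested.

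In epididymal fat on HFD, Pygl and Ppp1r3c had the largest differences. Pygl had a median of 109 CPM (77.3 to 122) in WT and a median of 322 CPM (299 to 389) in KO libraries, a 3.59-fold rise (1.84 ± 0.12, adjusted p = 4.1e-12), so that the lowest KO library was far above the highest WT library. Ppp1r3c went from a median of 17.0 CPM (7.79 to 28.6) to a median of 58.0 CPM (43.3 to 84.0), 3.69-fold (1.88 ± 0.21, adjusted p = 2.42e-08). Gys1 was at a median of 55.1 CPM (44.0 to 75.3) in WT and a median of 114 CPM (103 to 185) in KO libraries (1.31 ± 0.14, adjusted p = 7.92e-09), and Gys2 was at a median of 52.4 CPM (39.7 to 67.9) and a median of 94.8 CPM (79.9 to 107) (1.04 ± 0.25, adjusted p = 0.00132). None of these 4 genes had overlapping ranges, and the share of all genes without overlap was not counted. Gbe1 (log2 difference 0.81 ± 0.13), Ppp1r3b (0.99 ± 0.24) and Phka2 (0.45 ± 0.11) also rose, with overlap and adjusted p of 8.74e-06, 0.00145 and 0.00149. Ugp2 was the member that did not pass, at a median of 132 CPM (86.8 to 154) in WT and a median of 133 CPM (53.9 to 155) in KO libraries (0.13 ± 0.14, adjusted p = 0.499); with library totals in place of TMM scaling its sign turned (-0.034).

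Marker sums also differed between these epididymal groups. Macrophage markers summed to 4098 to 5234 CPM in WT HFD and 1040 to 2329 CPM in KO HFD libraries, and fat cell markers to 17880 to 26600 and 26342 to 32179 CPM. Adgre1 (F4/80), a defining macrophage gene, was at 342 to 472 CPM (median 377) and 72.2 to 201 CPM (median 120.3). Adipoq was at 654 to 1285 CPM in WT HFD and 1320 to 2367 CPM in KO HFD libraries, higher in KO without overlap. Their part in the epididymal rises was not tested. Gys2, Pygl and Ppp1r3b are also liver genes, and Alb (albumin) was read for that reason. It was at 0.870 to 3261 CPM (median 1.08) in WT HFD epididymal libraries, so libraries 4 and 5 stood apart (814 and 3261 CPM) from the other 6, and at 14.2 to 43.7 CPM (median 16.2) in KO HFD ones. Gys2 was at 60.9 and 52.9 CPM in libraries 4 and 5, within the range of the other 6, and so were Pygl (108 and 111 CPM) and Ppp1r3b (14.8 and 17.6 CPM). The whole liver list, of which Hp and Cyp2e1 are also made by fat cells, summed to 3230 to 9612 and 3282 to 7088 CPM; in subcutaneous fat the sums were 2420 to 5235 in WT and 2546 to 4033 CPM in KO HFD libraries. Alb itself was at 4.08 to 160.0 CPM (median 8.18) in subcutaneous WT HFD and 78.6 to 325 CPM (median 86.5) in KO HFD libraries, so its median was higher in the KO group in both depots, as were those of Gys2, Pygl and Ppp1r3b, and its part in their rises was not tested.

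**Figure D2:**
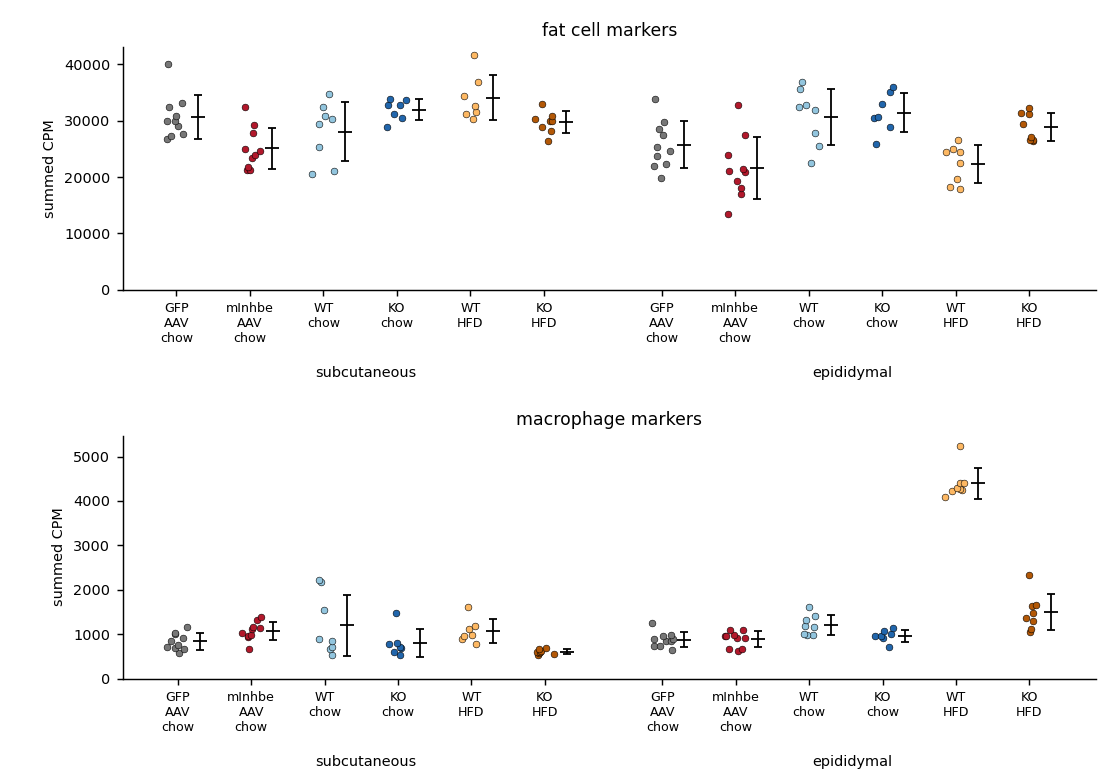
Summed CPM of 10 fat cell markers (top) and 10 macrophage markers (bottom) per library in the 12 groups; bars give mean and SD. Epididymal WT HFD libraries are the highest for macrophage markers, and their fat cell sums overlap those of the other 5 epididymal groups and lie below those of subcutaneous WT HFD libraries.

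The KO response depended on diet. In epididymal fat the KO difference was larger on HFD than on chow for Gys1 (1.14 ± 0.20, adjusted p = 0.000126), Gbe1 (0.62 ± 0.19, adjusted p = 0.0196), Pygl (1.48 ± 0.17, adjusted p = 1.24e-06) and Ppp1r3c (1.56 ± 0.29, adjusted p = 0.000379). That is 4 of 8 members, where 7.83% of all genes tested had a called positive interaction. Gys2 was not among them: its KO difference was 1.53 on chow and 1.04 on HFD, and the interaction was -0.49 ± 0.37 (adjusted p = 0.434). In subcutaneous fat Ppp1r3b alone of the members passed, at 1.32 ± 0.24 (adjusted p = 0.00146), against 0.387% of all genes. Subcutaneous Pygl was next (0.75 ± 0.22, adjusted p = 0.0716), and it passed without WT chow libraries 6, 7 and 8 (0.97, adjusted p = 0.00463). The interaction for Gys2 there was 0.11 ± 0.38 (adjusted p = 0.917), and for epididymal Ppp1r3b 0.45 ± 0.34 (adjusted p = 0.455).

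Between depots, the KO difference on HFD was larger in epididymal fat for Gys1 (0.85 ± 0.20, adjusted p = 0.00368), the 1 member called where 7.76% of genes were called in that direction. Ppp1r3b leaned the other way, with a larger difference in subcutaneous fat (-0.85 ± 0.31), and missed the threshold (adjusted p = 0.057) in the test as planned; DESeq2 brought it past (-0.83, adjusted p = 0.0493), as did 4 of the other alternatives. Gys2, Gbe1, Pygl, Ugp2, Ppp1r3c and Phka2 were not called, with differences of -0.30 for Ugp2 to 0.56 for Ppp1r3c.

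High-fat feeding itself split the members. In WT mice Gys2 rose in both depots while 4 subcutaneous and 5 epididymal members fell. These comparisons share the WT HFD libraries with those of KO against WT on HFD, so the values are not independent of the KO differences above. In subcutaneous fat 1 member rose, against 22.6% of all genes, and 4 fell, against 21.5%. In epididymal fat the same counts were 1, against 28.9%, and 5, against 25.2%.

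Epididymal Gys2 went from a median of 5.83 CPM (2.79 to 12.7) on chow to a median of 52.4 CPM (39.7 to 67.9) on HFD, an 8.98-fold rise (3.17 ± 0.28, adjusted p = 5.13e-11), and no chow library came near the lowest HFD library. Subcutaneous Gys2 rose 2.19-fold, from a median of 23.7 CPM (7.72 to 47.6) to a median of 52.4 CPM (41.5 to 59.0) (1.13 ± 0.27, adjusted p = 0.0013), with overlap in 1 library of each diet. The rise was larger in epididymal fat by 1.98 ± 0.38 (adjusted p = 4.24e-05; 16.1% of genes called in that direction). Alb, a defining liver transcript, was at 4.78 to 8.91 CPM (median 6.64) in WT chow and 0.870 to 3261 CPM (median 1.08) in WT HFD epididymal libraries. Its part in the Gys2 rise was not tested.

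Gys1 moved opposite to Gys2. In epididymal fat it fell from a median of 127 CPM (115 to 158) on chow to a median of 55.1 CPM (44.0 to 75.3) on HFD (-1.17 ± 0.14, adjusted p = 1.85e-08). Ppp1r3c fell most, from a median of 58.1 CPM (31.1 to 79.2) to a median of 17.0 CPM (7.79 to 28.6) (-1.49 ± 0.21, adjusted p = 4.67e-07), and Pygl went from a median of 189 CPM (164 to 218) to a median of 109 CPM (77.3 to 122) (-0.77 ± 0.12, adjusted p = 3e-06). Gbe1 (-0.59 ± 0.13) and Phka2 (-0.34 ± 0.11) fell by less. Diets did not overlap for any of these 5 falling genes or for Gys2, and the share of all genes without overlap was not counted. Macrophage sums moved with them, from 971 to 1613 CPM on chow to 4098 to 5234 CPM on HFD, while fat cell sums went from 22519 to 36845 to 17880 to 26600 CPM. Adipoq was at 1646 to 3097 CPM on chow and 654 to 1285 CPM on HFD. The part of these markers in the differences was not tested.

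In subcutaneous fat of WT mice Gys1 (-0.61 ± 0.16), Ppp1r3c (-0.70 ± 0.21), Pygl (-0.39 ± 0.16) and Phka2 (-0.37 ± 0.12) fell, with adjusted p of 0.00261, 0.00798, 0.0463 and 0.0142, and every one of the 4 had overlapping diet ranges. Macrophage sums there were 525.9 to 2227 CPM on chow and 786 to 1614 CPM on HFD. Of the alternatives, 9 of 10 called Gys1, 10 of 10 Ppp1r3c, 6 of 10 Pygl and 7 of 10 Phka2. Without the 4 libraries low in lymph node transcript the Gys1, Pygl and Phka2 calls were lost (adjusted p = 0.0734, 0.135 and 0.0516). The fall was larger in epididymal fat for Gys1 (-0.62 ± 0.20), Ppp1r3c (-0.86 ± 0.30) and Gbe1 (-0.56 ± 0.21), and the diet difference of Ugp2 was lower there too (-0.42 ± 0.17). These 4 members compare with 17.3% of genes in that direction, and their adjusted p were 0.0139, 0.0215, 0.0323 and 0.0433. Of the alternatives, 9 of 10 called Gys1, 6 of 10 Ppp1r3c, 4 of 10 Gbe1 and 1 of 10 Ugp2. Without WT chow subcutaneous libraries 6, 7 and 8, which had macrophage sums of 1534 to 2227 CPM against 525.9 to 888 in the other 5, all 4 calls were lost (adjusted p = 0.155, 0.171, 0.296 and 0.233), and that for Gys2 was kept.

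In KO mice edgeR and DESeq2 called 0 members lower with HFD in either depot, against 9.05% of all genes in subcutaneous and 13.9% in epididymal fat, with 1 (Gys1) and 0 members lower at an unadjusted p under 0.05. With library totals in place of TMM scaling, epididymal Gys1 (-0.29), Ugp2 (-0.37) and Phka2 (-0.23) were called lower (adjusted p = 0.0396, 0.0304 and 0.0235). In epididymal fat of KO mice Gys2 went from a median of 16.7 CPM (8.49 to 27.4) on chow to a median of 94.8 CPM (79.9 to 107) on HFD (2.68 ± 0.28, adjusted p = 1.14e-08). Pygl, which fell in WT, rose from a median of 225 CPM (192 to 278) to a median of 322 CPM (299 to 389) (0.71 ± 0.12, adjusted p = 4.87e-05), and Ppp1r3b rose from a median of 15.8 CPM (8.54 to 31.8) to a median of 26.9 CPM (16.9 to 35.0) (0.85 ± 0.25, adjusted p = 0.00744). The Ppp1r3b call was lost with library totals (0.62, adjusted p = 0.0697). These 3 genes compare with 24.7% of all genes called higher. In subcutaneous fat of KO mice Gys2 rose from a median of 58.7 CPM (26.5 to 75.4) to a median of 103 CPM (92.0 to 125) (1.24 ± 0.28, adjusted p = 0.00143). Ppp1r3b rose there from a median of 13.6 CPM (10.0 to 17.7) to a median of 31.1 CPM (23.4 to 40.5) (1.43 ± 0.17, adjusted p = 2.56e-07), and the background was 11.7%. Neither gene's ranges overlapped in subcutaneous fat.

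Scaling bears on the diet comparisons. With library totals alone, the median gene of the subcutaneous KO comparison stood at -0.30 on HFD against chow, and with TMM scaling at -0.04; in epididymal KO fat the values were -0.24 and 0.00, and in WT fat -0.21 and -0.03 (subcutaneous) and -0.11 and -0.02 (epididymal). KO against WT on HFD shifted likewise, from -0.17 to -0.01 in subcutaneous and from -0.17 to 0.01 in epididymal fat. Fitted differences are therefore relative to that median, and plain CPM can look lower: subcutaneous Gys1 (132 to 186 CPM on chow, 89.7 to 109.7 on HFD) and Phka2 (111 to 131 and 93.4 to 108 CPM) did not overlap between the diets of KO mice and were not called in the test as planned (adjusted p = 0.115 and 0.998). The Gys1 difference of -0.35 ± 0.16 was called lower in 3 of 10 alternatives: with only the groups compared (-0.36, adjusted p = 0.00206), with library totals (-0.60, adjusted p = 0.000581) and without the least typical library of each group (-0.39, adjusted p = 0.0163).

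**Figure D3:**
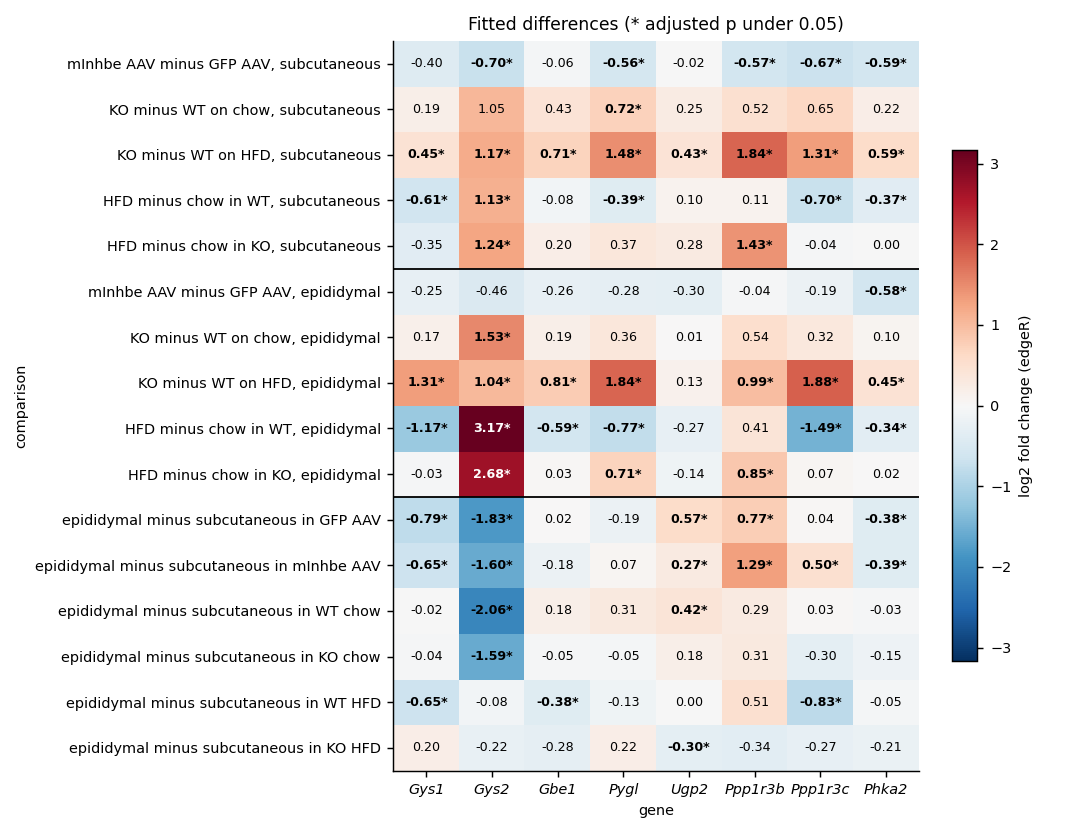
Fitted log2 differences of the 8 genes in the 16 pairwise comparisons, with red for higher and blue for lower in the group named first and an asterisk where the adjusted p was under 0.05. All members are positive for KO against WT on HFD (epididymal Ugp2 turns with library totals), and all are negative for mInhbe against GFP (with library totals subcutaneous Gbe1 and Ugp2 turn, and without GFP libraries 7 and 8 epididymal Ppp1r3b).

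Taking the 2 synthase genes together, Gys2 made up 6.05% ± 3.33 (SD, n = 8) of their summed CPM per kb in epididymal fat of WT mice on chow and 56.1% ± 5.94 (SD, n = 8) on HFD. In subcutaneous fat of WT mice it went from 19.5% ± 6.12 (SD, n = 8) to 47.3% ± 7.51 (SD, n = 7). KO mice had 13.6% ± 4.87 (SD, n = 7) on chow and 52.0% ± 3.79 (SD, n = 8) on HFD in epididymal fat, and 30.8% ± 7.54 (SD, n = 7) and 58.7% ± 1.79 (SD, n = 8) in subcutaneous fat. Chow-fed AAV mice stayed low, at 14.4% ± 4.70 with GFP and 11.8% ± 3.200 with mInhbe in subcutaneous fat, against 7.04% ± 3.09 with GFP and 6.11% ± 2.88 with mInhbe in epididymal fat (SD, n = 10 each). On HFD the group means of the Gys2 share thus lay between 47.3% and 58.7%. In subcutaneous fat of KO mice Gys2 exceeded Gys1 per kb in every HFD library (56.4% to 61.3%).

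**Figure D4:**
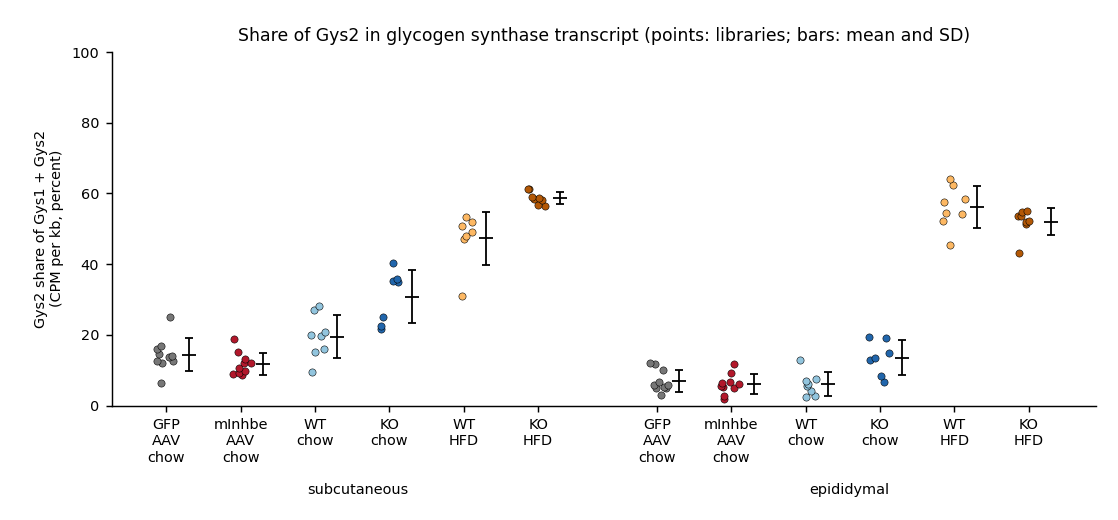
Share of Gys2 in the sum of Gys1 and Gys2, both in CPM per kb of exon, in percent on an axis from 0 to 100, for each library of the 12 groups with mean and SD. The 31 HFD libraries lie between 31.0% and 64.0%, and the epididymal chow libraries at 19.4% or less.

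On chow fewer members differed between KO and WT mice: 1 of 8 passed in each depot. In subcutaneous fat it was Pygl, which went from a median of 166 CPM (108 to 201) in WT to a median of 229 CPM (201 to 311) in KO libraries without overlap, by a narrow margin (0.72 ± 0.16, adjusted p = 0.0303), where 0.134% of all genes were called higher. The difference was called in 7 of 10 alternatives. The call was lost with only the groups compared (0.74, adjusted p = 0.106), with the replicate block (0.70, adjusted p = 0.0865) and without WT chow libraries 6, 7 and 8 (0.50, adjusted p = 0.344). In epididymal fat it was Gys2, at a median of 5.83 CPM (2.79 to 12.7) in WT and a median of 16.7 CPM (8.49 to 27.4) in KO libraries, a 2.88-fold rise (1.53 ± 0.27, adjusted p = 0.00215), against 0.173% of genes. With only those groups in the fit it missed the threshold (adjusted p = 0.05). Ranges overlapped there, and 7 of 8 WT libraries lay below every KO library. Alb moved with them, without overlap between the genotypes: it was at 16.7 to 36.7 CPM in WT and 71.6 to 102 CPM in KO subcutaneous libraries, and at 4.78 to 8.91 and 9.12 to 15.9 CPM in epididymal ones, and its part was not tested. Subcutaneous Gys2 had a log2 difference of 1.05 ± 0.27 with wide spread within groups, at a median of 23.7 CPM (7.72 to 47.6) in WT and a median of 58.7 CPM (26.5 to 75.4) in KO libraries, and missed the threshold (adjusted p = 0.104). The smallest differences were 0.19 for Gys1 in subcutaneous and 0.01 for Ugp2 in epididymal fat. Without WT chow libraries 6, 7 and 8 the sign of Gys1 turned (-0.037), and that of Ugp2 turned with a replicate block or with library totals.

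With mInhbe AAV 5 of 8 members fell in subcutaneous fat, against 11.4% of 13990 genes called lower. The members' median was -0.56 and that of all genes -0.00. Phka2 fell from a median of 96.1 CPM (87.3 to 113) with GFP to a median of 68.7 CPM (56.2 to 87.3) with mInhbe (-0.59 ± 0.08, adjusted p = 6.65e-05). Its highest mInhbe library equalled the lowest GFP library to 3 digits and lay just under it. Pygl went from a median of 208 CPM (146 to 336) to a median of 153 CPM (133 to 202) (-0.56 ± 0.11, adjusted p = 0.00152) and Gys2 from a median of 24.2 CPM (16.1 to 38.3) to a median of 14.8 CPM (8.02 to 24.4) (-0.70 ± 0.17, adjusted p = 0.00652). The targeting subunits also fell. Ppp1r3c went from a median of 40.5 CPM (16.1 to 60.6) to a median of 27.3 CPM (11.9 to 41.4) (-0.67 ± 0.23, adjusted p = 0.0362) and Ppp1r3b from a median of 10.5 CPM (7.78 to 19.0) to a median of 7.81 CPM (5.36 to 12.8) (-0.57 ± 0.18, adjusted p = 0.0217). Apart from Phka2, the libraries of the 2 vectors overlapped for every member. Gys1 did not pass (-0.40 ± 0.18, adjusted p = 0.0893), at a median of 189.5 CPM (153 to 324) with GFP and a median of 146 CPM (111 to 276) with mInhbe, and it did without the least typical library of each group (-0.40, adjusted p = 0.0103). Gbe1 (means 77.8 ± 18.4 and 79.5 ± 15.4 CPM, SD, n = 10 each) and Ugp2 (96.7 ± 18.8 and 102 ± 14.1 CPM) did not pass either; their fitted differences of -0.06 and -0.02 turned to 0.031 and 0.081 with library totals.

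Lymph node and fat cell markers moved with the vector in the same tissue. Lymph node sums were 877 to 1842 CPM with GFP and 1156 to 2337 CPM with mInhbe, and fat cell sums 26661 to 40032 and 21188 to 32467 CPM. Alb also moved with the vector, without overlap: it was at 16.7 to 41.8 CPM with GFP and 2.70 to 13.1 CPM with mInhbe, in the libraries in which Gys2, Pygl and Ppp1r3b fell. The part of fat cell markers and of Alb was not tested. Once a score of lymph node transcript entered the fit, Pygl and Phka2 were still called and Gys2, Ppp1r3b and Ppp1r3c were not (adjusted p = 0.138, 0.159 and 0.281), with differences of -0.53, -0.57 and -0.58. Calls were fewer among all genes too: 2.4% were called in either direction in that fit. The fit without the score called 15.8% higher and 11.4% lower. Library totals in place of TMM took the calls of Ppp1r3b and Ppp1r3c (adjusted p = 0.0541 and 0.0692), and leaving out the least typical library of each group that of Ppp1r3c (adjusted p = 0.0793).

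Epididymal fat showed less with mInhbe AAV. Phka2 again fell, from a median of 76.9 CPM (52.1 to 117) to a median of 53.0 CPM (39.5 to 74.2) (-0.58 ± 0.14, adjusted p = 0.0408), as 1 of 8 members where 0.404% of genes were called lower. Epididymal GFP library 7, the highest for Phka2, held almost no epididymis transcript. Without the least typical library of each group, library 7 among them, the call was lost (-0.44, adjusted p = 0.0634), and at nearly the same difference it was also lost with no filter (-0.58, adjusted p = 0.0617) and with the replicate block (-0.56, adjusted p = 0.119). It was kept without GFP libraries 7 and 8 (adjusted p = 0.0196). All other members had negative differences that did not pass, the smallest being -0.04 for Ppp1r3b, whose sign turned without GFP libraries 7 and 8 (0.017). Epididymal Pygl was at a median of 205 CPM (144 to 234) with GFP and a median of 155 CPM (132 to 217) with mInhbe, and Gys2 at a median of 5.43 CPM (2.97 to 13.5) and a median of 3.78 CPM (1.36 to 12.1). The difference between depots in the mInhbe effect was called for 0 of 8 members by edgeR and by DESeq2, where 13.5% of all genes were called in either direction by edgeR. At an unadjusted p under 0.05, 1 member, Ugp2, was below the threshold. So none of the 8 was shown to respond differently in the 2 depots.

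**Figure D5:**
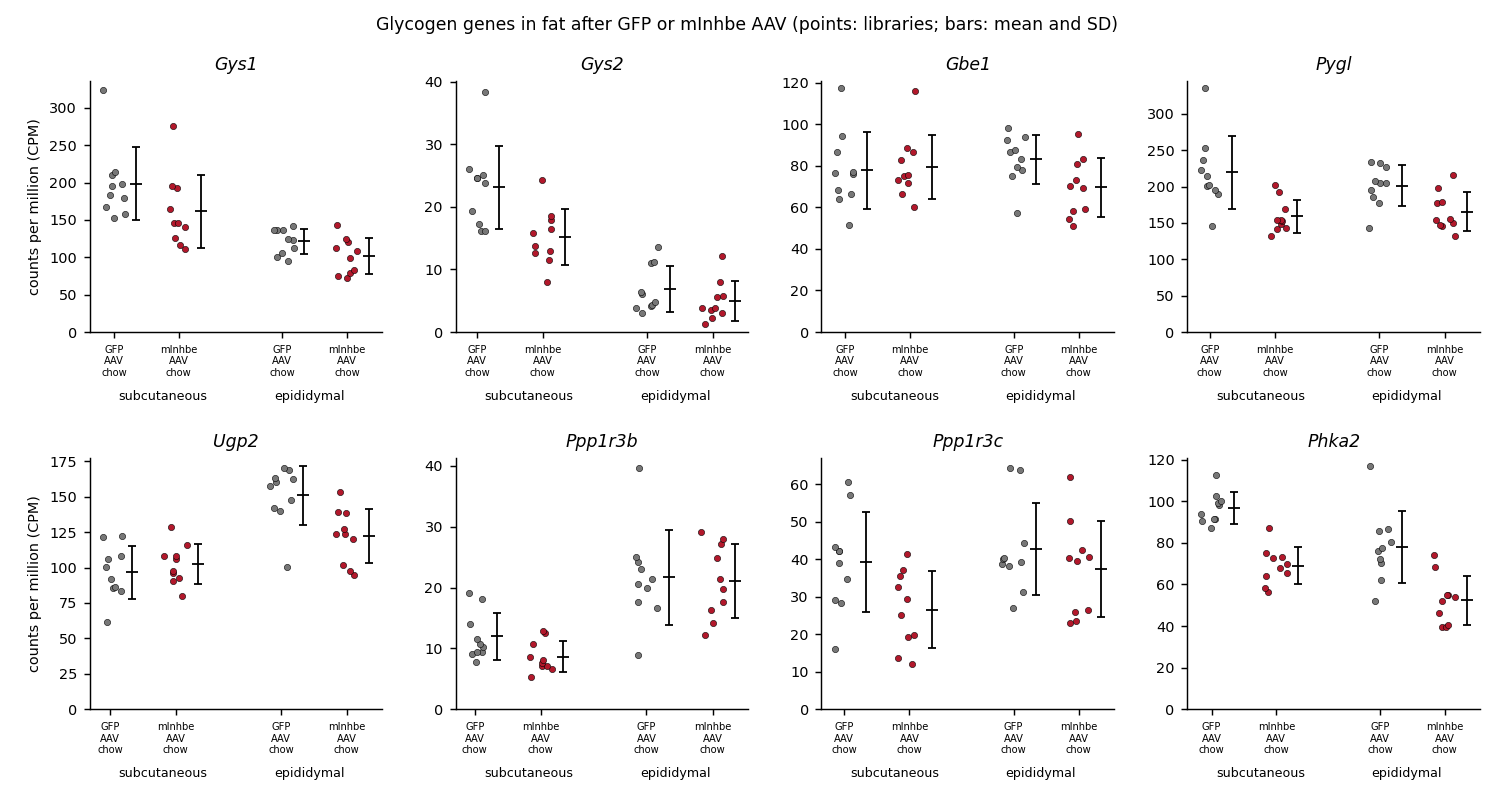
Levels of the 8 glycogen genes in the AAV experiment, in CPM on linear axes that start at 0, for GFP (grey) and mInhbe (red) in subcutaneous and epididymal fat; points are libraries and bars mean and SD of 10. Subcutaneous Phka2 separates the 2 vectors, and Gys2 is lower in epididymal than in subcutaneous fat with either.

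Depot divided Gys2 on chow. It was lower in epididymal than in subcutaneous fat in all 4 chow-fed groups, 3.55-fold with GFP (-1.83 ± 0.28), 3.03-fold with mInhbe (-1.60 ± 0.28), 4.18-fold in WT (-2.06 ± 0.28) and 3.02-fold in KO mice (-1.59 ± 0.28), with adjusted p of 8.11e-06 or less. On HFD the depots did not differ detectably, with an adjusted p of 0.838 in WT and 0.496 in KO mice. Ugp2 was higher in epididymal fat with GFP (0.57 ± 0.10), with mInhbe (0.27 ± 0.10) and in WT mice on chow (0.42 ± 0.12), and lower in KO mice on HFD (-0.30 ± 0.12, adjusted p = 0.0314; called in 4 of 10 alternatives). Ppp1r3b was higher in epididymal fat in both AAV groups (0.77 ± 0.19 and 1.29 ± 0.19). Gys1 was lower there with GFP (-0.79 ± 0.15), with mInhbe (-0.65 ± 0.15) and in WT mice on HFD (-0.65 ± 0.15), and was not called in WT mice on chow or in KO mice on either diet. Phka2 was lower in epididymal fat in both AAV groups (-0.38 ± 0.11 and -0.39 ± 0.11, adjusted p = 0.00335 and 0.00293). Ppp1r3c was lower there in WT mice on HFD (-0.83 ± 0.22, adjusted p = 0.0017; called in 10 of 10 alternatives) and higher with mInhbe (0.50 ± 0.22, adjusted p = 0.0401; 5 of 9). Gbe1 was lower in WT mice on HFD (-0.38 ± 0.15, adjusted p = 0.0381; 6 of 10), and Pygl was called in none of the 6 groups. The called members numbered 5 of 8 with GFP, 6 with mInhbe, 2 in WT chow, 1 in KO chow, 3 in WT HFD and 1 in KO HFD. Among all genes, 64.5%, 64.7%, 43.1%, 36.0%, 40.8% and 41.8% were called in the same order, so the members' shares were near the background in the AAV and WT HFD groups and under it in the other 3. Epididymis markers summed to at most 0.690 CPM in any subcutaneous library, so that the tissue scores and depot nearly coincide. With the scores as covariates no member was called in either AAV group. In those fits 3.62% of all genes were called with GFP and 2.28% with mInhbe, so the lack of called members is near the background.

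Of 30 other genes of glycogen and glucose-phosphate metabolism, edgeR called 0 with KO on chow in either depot. Over all genes, 19 were called higher and 17 lower of 14220 in subcutaneous fat, and 26 and 73 of 15042 in epididymal fat. The counts of 0 are thus near the background. At an unadjusted p under 0.05 there were 5 of the other glycogen genes in each depot, and DESeq2 called 1 (Ppp1r3d, subcutaneous) and 0. With KO on HFD 6 rose and 1 fell of 27 tested in subcutaneous fat, and 12 rose and 2 fell of 29 in epididymal fat. Among all genes 7.32% were called higher and 11.6% lower in the subcutaneous comparison, against 17.0% and 20.2% in the epididymal one. The medians were 0.08 and 0.30. Slc2a4 (GLUT4), the insulin-responsive glucose transporter, rose by 1.15 ± 0.18 and 2.44 ± 0.16 (adjusted p = 2.63e-05 and 4.1e-12), and Pgm1, the phosphoglucomutase that makes glucose-1-phosphate, by 0.61 ± 0.13 and 1.30 ± 0.15. Pygb, the brain-type phosphorylase, rose in epididymal fat by 1.35 ± 0.15 (adjusted p = 1.47e-08), and Gaa, the lysosomal glucosidase that degrades glycogen, had a difference of -0.68 ± 0.14 in subcutaneous fat (adjusted p = 0.000695).

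With HFD in WT mice 6 of these genes rose and 3 fell in subcutaneous fat, and 3 rose and 11 fell in epididymal fat. Of all genes 22.6% were called higher and 21.5% lower in the former depot, and 28.9% and 25.2% in the latter, so the 6 subcutaneous genes that rose are a share near the background. In subcutaneous fat the smallest adjusted p were those of Ppp1cb, the catalytic subunit of protein phosphatase 1 (0.77 ± 0.08), the targeting subunit Ppp1r3d (1.10 ± 0.15) and the kinase subunit Phkg1 (-1.34 ± 0.19). Gyg (glycogenin, the protein primer of glycogen) rose in epididymal fat by 1.36 ± 0.13 (adjusted p = 2.37e-10), while Pygb and Slc2a4 had differences of -1.86 ± 0.15 and -1.59 ± 0.16 there (adjusted p = 7.22e-12 and 7.57e-10). In KO mice 3 rose and 2 fell with HFD in subcutaneous fat, and 6 rose and 3 fell in epididymal fat, where Gyg again rose (1.37 ± 0.13). All 4 counts are near or under the background (11.7% higher and 9.05% lower in subcutaneous fat, 24.7% and 13.9% in epididymal fat). The KO by diet interaction was called for Slc2a4 (1.94 ± 0.22), Pygb (1.14 ± 0.21) and Ppp1r3d (0.97 ± 0.21), among 8 higher and 1 lower in epididymal fat, where 7.83% of all genes were called higher and 8.7% lower. With mInhbe AAV in subcutaneous fat 2 rose and 7 fell, against 15.8% and 11.4% of all genes, with Pgm1 (-0.87 ± 0.11), Pygb (-0.83 ± 0.15) and Slc2a4 (-0.96 ± 0.21) among the latter. Once the score of lymph node transcript entered that fit, 2 of these genes were called in either direction, and 2.4% of all genes. In epididymal fat edgeR called 0 of 29, where 113 of all 14850 genes were called higher and 60 lower, so 0 is near the background. At an unadjusted p under 0.05 there were 7, and DESeq2 called 1 (Slc2a4).

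Per kilobase, the phosphorylase transcripts of fat were Pygl and Pygb rather than the muscle form Pygm: group means ran over 31.2 to 98.4, 33.9 to 147 and 3.44 to 13.1 CPM per kb. Pygl made up 29.9% ± 2.39 (SD, n = 8) of the 3 in epididymal fat of WT mice on chow, 45.4% ± 5.48 (SD, n = 8) on HFD and 55.2% ± 5.81 (SD, n = 8) in KO mice on HFD. In subcutaneous fat the shares were 38.1% ± 3.47 (SD, n = 8), 41.5% ± 9.48 (SD, n = 7) and 59.6% ± 4.93 (SD, n = 8). Ppp1r3c made up 61.1% ± 6.37 (SD, n = 8) of the Ppp1r3 transcripts per kb in epididymal fat of WT mice on chow and 36.3% ± 8.85 (SD, n = 8) on HFD, where Ppp1r3b went from 8.19% ± 3.78 to 18.3% ± 3.94. Ppp1r3c fell there from a mean of 20.0 to 6.64 CPM per kb. The level of Ppp1r3b itself was 2.67 on chow and 3.24 CPM per kb on HFD, and its diet difference was not called (1 of 8 alternatives called it).

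Across all 101 libraries the members did not follow 1 pattern. Pearson correlations of log2(CPM + 1) were highest between Gbe1 and Pygl (r = 0.72) and between Pygl and Ppp1r3c (r = 0.63), and those of Gys1 with Gys2 (r = -0.17) and Ugp2 (r = -0.32) were negative. Among 11526 genes of at least 5 CPM on average, the transcripts most like Gys1 were D2hgdh, Slc25a23 and Lipe (r = 0.92, 0.92 and 0.91), and those most like Gys2 were Odf3l1, Adam12 and Gpd1 (r = 0.91, 0.90 and 0.89). Gbe1 was nearest to Pdha1, Mmut and Ndufs1 (r = 0.85, 0.82 and 0.81), and Pygl to Thrsp, Pcca and Uqcrc2 (r = 0.83, 0.83 and 0.81). Ugp2 was nearest to Sh3bgrl, Septin10 and Cdkl2 (r = 0.91, 0.88 and 0.88), and Phka2 to Ralgapa2, Ipo9 and Dlc1 (r = 0.84, 0.81 and 0.81). Ppp1r3b (Cth, Ryr2 and Prune2; r = 0.75, 0.72 and 0.69) and Ppp1r3c (Raver2, Popdc2 and Mccc1; r = 0.76, 0.74 and 0.71) had the weakest nearest genes. These values pool groups, depots and experiments and share each library's depth and tissue makeup, so they describe the libraries.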

How the data were processed

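Polyadenylated RNA of subcutaneous and epididymal fat was sequenced in 101 libraries (500 ng RNA, 14 PCR cycles and 76 sequencing cycles, paired-end, per the labels' protocols). The authors deposited 2 tables of estimated counts per Entrez gene, of which 2.94% of values are not whole; the build is mm10 per the submitters' processing notes. No aligner, counter, strand setting or use of the adapters' molecular identifiers is given in the sources used here. Library totals of 12970500 to 20170700 estimated counts set the precision of low genes such as Ppp1r3b.

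Entrez identifiers were joined to RefSeq symbols (24375 of 24475 matched). Estimated counts were rounded and tested with edgeR 4.0.16 (R 4.3.3; filterByExpr with a minimum count of 10 and a minimum total of 15, TMM scaling, robust quasi-likelihood fit) in 21 comparisons, 16 pairwise and 5 interactions, each fitted within its experiment and, except between depots, its depot. The threshold was an adjusted p of 0.05. The test was checked on simulated counts. Alternatives were RLE size factors, DESeq2 1.42.0, no filter, a replicate block, only the groups compared and a tissue score covariate, with 5 others added after seeing the data. Lengths are merged GENCODE exons of GRCm38.

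All 8 members were tested in every comparison, and the plot of fitted differences shows all 8 for the pairwise ones. The plan was to name all 8 in each; the text names those called and the uncalled ones that a statement turns on. Of 30 other glycogen genes up to 3 called ones with the smallest adjusted p are named, and levels or shares are given for Pygb, Pygm and the Ppp1r3 genes. For each member the 3 genes with the highest r of log2(CPM + 1) are named. Marker lists (fat cell, liver, skeletal muscle, lymph node, epididymis, macrophage, brown fat) are given as summed CPM. Members and lists were chosen with earlier results of these data known.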

Additional observations from a re-analysis of the deposited data

Results flagged for a closer look

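In 12 of 96 sets of one gene in one group of libraries, a single library lay apart from the others by Dixon's test, which chance does in about 1 in 20 groups. Gys1 was highest in subcutaneous GFP library 2 (324 CPM), subcutaneous mInhbe library 4 (276 CPM), subcutaneous WT HFD library 6 (128 CPM) and epididymal KO HFD library 4 (185 CPM). The last 2 libraries were also the lowest of their groups for Ugp2, at 67.1 and 53.9 CPM, and epididymal KO HFD library 4 was the lowest for Gbe1, at 62.4 CPM. All 4 were the least typical library of their group over all genes. Gys2 stood out in subcutaneous GFP library 9 (38.3 CPM, high), Gbe1 in subcutaneous mInhbe library 9 (116 CPM, high) and Ugp2 in epididymal GFP library 5 (100.2 CPM, low). Ppp1r3b was highest in epididymal GFP library 8 (39.6 CPM), where brown fat markers summed to 1513 CPM, and Phka2 in epididymal GFP library 7 (117 CPM), where epididymis markers summed to 3.04 CPM.

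For 11 pairs of a gene and a contrast, the response differed between diets or depots by an edgeR interaction test. The KO response was larger on HFD than on chow for subcutaneous Ppp1r3b (by 1.32 on the log2 scale) and, in epididymal fat, for Pygl (1.48), Gys1 (1.14), Ppp1r3c (1.56) and Gbe1 (0.62). On HFD the KO response of Gys1 was larger in epididymal than in subcutaneous fat by 0.85. The HFD response of WT mice was higher in epididymal fat for Gys2 (1.98) and lower for Gys1 (-0.62), Ugp2 (-0.42), Ppp1r3c (-0.86) and Gbe1 (-0.56).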

How the results depend on the processing

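Each of the 21 comparisons was repeated under 6 alternatives and, where they apply, 5 others chosen after seeing the data: library totals in place of TMM, and leaving out the least typical library of each group, 4 libraries low in lymph node transcript, WT chow subcutaneous libraries 6 to 8, or GFP epididymal libraries 7 and 8. The members called with KO on HFD numbered 7 or 8 in subcutaneous fat and 7 in epididymal fat under every alternative run. Elsewhere counts of called members moved as follows. With mInhbe AAV 5 in subcutaneous fat became 2 with the tissue score and 3 with library totals, and 1 in epididymal fat became 0 with no filter, with the replicate block and without the least typical libraries. Shares of all genes called, in either direction, moved as well. They were 2.4% with the tissue score in subcutaneous fat, and 0.709% with no filter and 0.512% with the block in epididymal fat. With KO on chow, 1 in subcutaneous fat became 2 with DESeq2, 0 with the block, 3 without the least typical libraries, 0 with only the groups compared and 0 without WT libraries 6 to 8. In epididymal fat 1 became 2 with the tissue score and 0 with only the groups compared. All genes called in the subcutaneous comparison were 0.844% with DESeq2 and 0.162% with the block. They were 2.27% without the least typical libraries and 0.165% with only the groups compared. With HFD in WT, 5 in subcutaneous fat became 3 with only the groups compared, where 27.8% of all genes were called, and 2 without the 4 libraries. With HFD in KO, 2 in subcutaneous fat became 4 without the least typical libraries, 5 with only the groups compared and 4 without WT libraries 6 to 8, and 3 in epididymal fat became 5 with library totals, 3 of them lower. With only the groups compared, 47.2% of all genes were called in the subcutaneous comparison. The test as planned called 11.7% higher and 9.05% lower there. The subcutaneous KO by diet count of 1 became 2 with DESeq2, the tissue score or without WT libraries 6 to 8, and DESeq2 called 3.74% of all genes. Between depots, 5 with GFP and 6 with mInhbe became 0 with the tissue scores, and 2 in WT chow became 1 with the scores or without WT libraries 6 to 8. With the scores 3.62% (GFP), 2.28% (mInhbe) and 14% (WT chow) of all genes were called. In KO HFD 1 became 0 with RLE, DESeq2 or no filter, 3 with the scores and 2 with only the groups compared. For KO on HFD by depot 1 became 2 with DESeq2, the block, the scores, only the groups compared or without the 4 libraries. For HFD in WT by depot 5 became 3 with no filter or the scores, 2 with library totals, only the groups compared or without the 4 libraries, and 1 without WT libraries 6 to 8, where 21.1% of all genes were called. Counts of the other glycogen genes also moved. In subcutaneous fat they reached 5 with KO on chow without the least typical libraries. With HFD in KO they reached 11 there with only the groups compared. Signs turned for Gys1 with KO on chow in subcutaneous fat (-0.037 without WT libraries 6 to 8), Gys2 in the subcutaneous KO by diet interaction (-0.17 without the least typical libraries), Ppp1r3b with mInhbe in epididymal fat (0.017 without GFP libraries 7 and 8), Gbe1 with mInhbe in subcutaneous fat (0.031 with library totals) and Ugp2 there (0.0022 with the tissue score, 0.081 with library totals), Ugp2 with KO in epididymal fat (on chow -0.0047 with the block and -0.021 with library totals, on HFD -0.034 with library totals) and Gys2 between depots with the tissue scores (0.0099 with GFP, 0.41 with mInhbe). With HFD in KO, Phka2 turned in subcutaneous fat to 0.019 with the block, 0.00063 without the 4 libraries and 0.013 without WT libraries 6 to 8, and in epididymal fat to -0.045 with RLE, -0.045 with DESeq2, -0.031 with no filter, -0.087 with the score, -0.23 with library totals, -0.10 without the least typical libraries and -0.056 with only the groups compared. Gys2 between depots in WT HFD turned to 0.024 with the scores, 0.014 with library totals and 0.0087 without the 4 libraries. Members whose values the text does not print turned in 57 further cases, over 23 differences of at most 0.31 in size, 0 of them called. The causes were not tested. Deviations of same-numbered GFP libraries of the 2 depots correlated at -0.21 to 0.20. Over the groups, the median for same-numbered libraries of the 2 depots ran from -0.10 (mInhbe) to 0.09 (WT chow). Such values cannot show whether equal numbers are 1 mouse, because tissue carried along also moves these deviations. Leaving out each replicate in turn was not run, as groups hold 7 to 10 libraries. Depth limits Ppp1r3b and, on chow in epididymal fat, Gys2 most.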
